A study of Danio rerio with 4 samples.

Results

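Values for 10 immediate-early response genes are described in whole zebrafish embryos raised with or without added glucose. These were egr1, ier2a, ier5l, dusp5, dusp6, btg1, btg2, cebpd, ccn1 and mcl1a, and they were found on the array by gene symbol among 8793 named genes. They had 16 of the 10795 probe sets annotated with a single gene, among 15502 probe sets without the controls. The genes were put forward with the glucose against control differences of these same arrays in view, so those differences are a description of the members and test nothing about them. RNA came from whole embryos at 36 hours post fertilisation (hpf). Control embryos were compared with embryos grown from 12 to 36 hpf in 1% glucose in E3, the standard zebrafish embryo medium; both groups were kept at the same incubation temperature. The groups follow the sample titles and the treatment label, since the note on glucose treatment is attached to the control samples as well. Each group had 2 biological replicates with 1 array each. The strain, the number of embryos in a sample and whether the replicates came from separate clutches are not given in the sources used here, so the spread between replicates may be partly technical. In RNA from whole embryos, fewer cells of a type and less RNA per cell cannot be told apart.

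Immediate-early genes are switched on within minutes of a stimulus from transcription factors already present in the cell, without new protein synthesis. Growth factors that act through the ERK kinase cascade, cell stress and handling are well-known triggers, and most of the transcripts are short-lived. Their products have several roles: transcription factors such as Egr1 pass the signal on, dual-specificity phosphatases such as Dusp5 and Dusp6 switch ERK off again, BTG proteins restrain proliferation and speed up mRNA decay, and Mcl1 blocks apoptosis.

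The arrays were alike in level, with a median intensity between 171 and 175. Tag probe sets match no fish transcript. The brightest reading among the 17 on the array was 117.7, called the tag level below; between 58.4% and 59.3% of probe sets lay above it. Markers of skeletal muscle, epidermis, neurons and lens, of notochord and of heart were measured on every array, with a summed intensity of 231126 to 268894 for the 4 muscle markers, and the 2 hatching gland markers were not among the tested probe sets. Summed levels of some tissue markers did not overlap between the groups. Among all tested single probe sets, the groups did not overlap for 20.3% lower and 20.7% higher in glucose. The muscle sums did overlap, at 231126 to 268894 in controls and 239528 to 245412 in glucose. So did the endothelium marker kdrl, at 420.02 to 438.99 in controls and 419.95 to 421.41 in glucose. The 4 neural markers summed to between 10532 and 11432 on the control arrays and between 9542 and 10151 in glucose, and 8 of their 9 probe sets were lower in glucose. The 2 measured erythroid markers summed to between 803 and 826 on the control arrays and between 1287 and 1329 in glucose. The 2 liver markers summed to between 6148 and 7331 in controls and between 9057 and 10779 in glucose. That liver sum was made up mostly of tfa. The other liver marker, fabp10a, read between 7.68 and 51.4, below the tag level on all 4 arrays. In limma with an intensity trend, described below, tfa and the erythroid marker alas2 passed higher, with log2 differences of 0.55 and 0.69. Of all tested probe sets 1.29% passed higher. No other marker probe set passed, and neither of these did without the trend. The 4 myeloid markers summed to between 4607 and 4732 in controls and between 5329.7 and 5374 in glucose, a sum made up mostly of lyz, while 3 of their 5 probe sets were lower in glucose, with a median log2 difference of -0.12; spi1b read as low as 14.0 on 1 of its probe sets. The heart marker myl7 read between 1069 and 1198 in controls and between 1510.2 and 1544 in glucose, the notochord marker col2a1a between 8820.1 and 8896 against 9902 to 10688, and the lens marker cryaa between 485 and 500.5 against 364 to 391. The 3 measured epidermis markers summed to between 52763 and 58503 in controls and between 52639 and 52706 in glucose. The lower control sum lay very close to the glucose sums. Only 1 of the 3 epidermis probe sets had groups that did not overlap, and their median log2 difference was -0.06. The part of these tissue differences in the values of the immediate-early genes was not tested.

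Of the 16 probe sets, 14 passed the filter on low values, a log2 intensity of at least 5 on at least 2 arrays, and every gene kept at least 1. The 2 that did not pass were 1 of egr1 and 1 of cebpd. The differences and their standard errors (SE) come from limma with an intensity trend, fitted over all 13628 tested probe sets, with Benjamini-Hochberg adjustment and a threshold of 0.10. Among the 14 tested member probe sets 1 passed lower in glucose, that of ier2a, where 0.712% of all tested probe sets did, and 1 passed higher, the brighter of dusp6, where 1.29% did. At an unadjusted p under 0.05 in the trend fit, 7 member probe sets were lower and 2 higher, against 5.26% and 6.22% of all probe sets. Without the trend 0 member probe sets passed, as did 0.0% of all probe sets in either direction. In that fit 3 lower and 2 higher member probe sets had an unadjusted p under 0.05, against 3.96% and 4.5% of all probe sets. The 2 groups did not overlap for 9 member probe sets lower in glucose, against 20.3% of all tested probe sets, and for 2 higher in glucose, against 20.7%. Because the contrast was known when the genes were chosen, nothing is read from these shares.

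**Figure D1:**
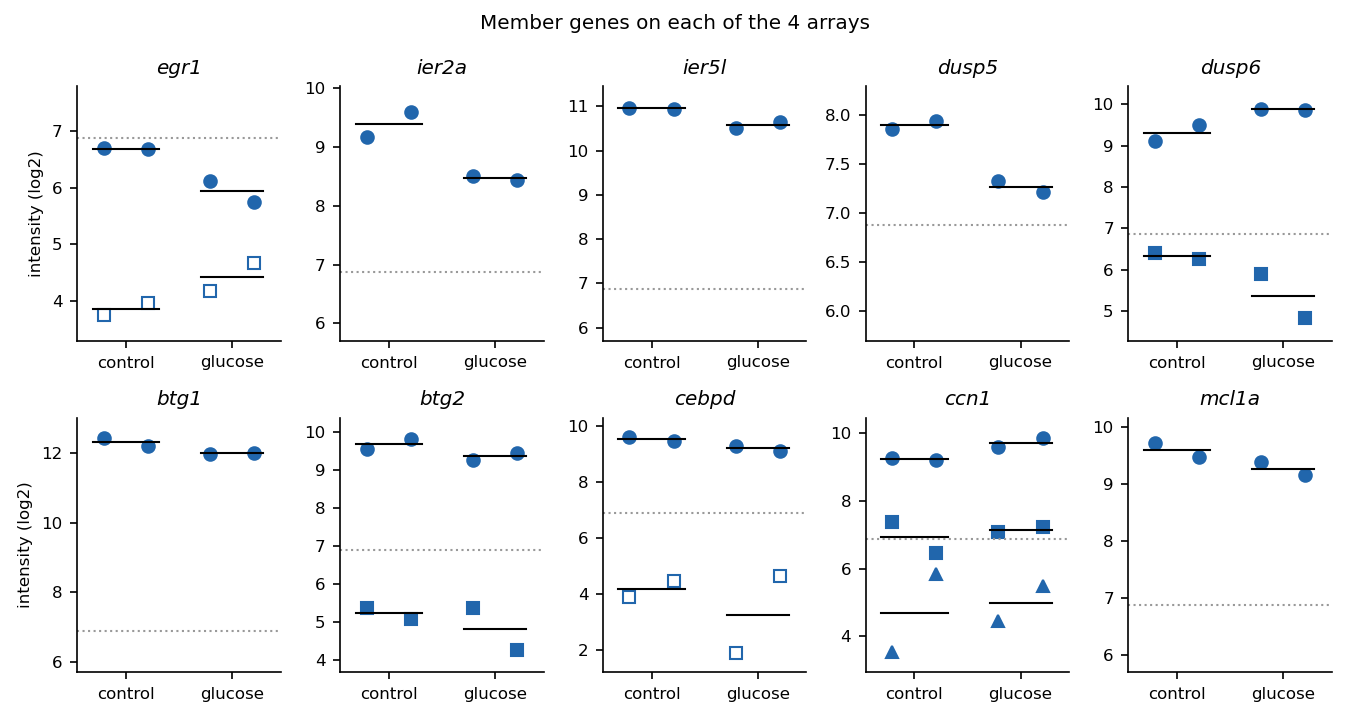
Log2 intensity of every probe set of the 10 genes on the 2 control and 2 glucose arrays. Each symbol shape is 1 probe set, open symbols did not pass the filter on low values, short lines are group means and the dotted line is the tag level. The glucose arrays lie below both controls for ier2a, ier5l, dusp5, btg1, btg2, cebpd and mcl1a on their bright probe sets, and above them for the bright probe sets of dusp6 and ccn1.

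Ier2a, a nuclear protein induced by growth factors, had the clearest lower signal. Its single probe set read 576 and 778 in the control replicates and 363 and 348 in the glucose replicates. Both glucose arrays were below both controls, and the controls were farther apart than the glucose arrays. The mean went from 677 ± 142 (SD, n = 2) to 355 ± 10.5, which is 1.88-fold lower between the means of log2 values, and the log2 difference was -0.91 with an SE of 0.17. It fell in the trend fit, with all 4 arrays and with each array left out in turn, and did not pass without the trend.

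For ier5l, a relative of the immediate-early gene ier5, the controls read 1983 and 1975 and the glucose arrays 1455 and 1603. The control values were almost the same, and both glucose values lay below them. The log2 difference was -0.37 (SE 0.12), a 1.30-fold lower level, and it did not pass. Its relative ier5 read 3213 and 3157 on the control arrays and 3929 and 3485 in glucose, and the log2 difference was 0.22 (95% interval from -0.02 to 0.45). The differences of ier5l and ier5 thus had opposite signs, but neither passed and the contrast between them was not tested.

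Egr1, a zinc finger transcription factor and one of the most used markers of ERK activity, was dim on this array. Its brighter probe set read 104 and 102 on the control arrays and 69.6 and 53.7 in glucose. The glucose arrays were lower, yet all 4 readings were below the tag level of 117.7. The log2 difference was -0.75 with an SE of 0.34 and an interval from -1.47 to -0.04, and it did not pass. The other egr1 probe set, which did not pass the filter, read 13.4 and 15.5 on the control arrays and 18.0 and 25.4 in glucose, the opposite direction, at levels far below the tag level. Its relatives egr2a and egr2b, which pattern the hindbrain, differed by -0.06 and -0.24, with intervals from -0.67 to 0.54 and from -1.30 to 0.83, and both were below the tag level on all 4 arrays.

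Cebpd encodes a leucine zipper transcription factor of the acute-phase and stress response. Its bright probe set read 794 and 720.4 on the control arrays and 632 and 560.0 in glucose. The groups did not overlap, and the mean went from 757 ± 52.0 (SD, n = 2) to 596 ± 50.8. The log2 difference of -0.35 (SE 0.15) did not pass. The dim probe set, outside the test, read 14.8 and 21.9 on the control arrays and 3.65 and 24.8 in glucose, and its groups overlapped. Of the other C/EBP genes, cebpb differed by 0.05 (interval from -0.29 to 0.40). For cebpa, a regulator of myeloid and liver cells named here after its values were seen, the log2 difference was 0.44 (interval from 0.15 to 0.74), with groups that did not overlap, and it did not pass.

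Of the phosphatase genes, dusp5 has a product that acts on ERK in the nucleus. Its probe set read 233 and 246 on the control arrays and 161 and 149 in glucose. All 4 arrays were above the tag level and the replicates of each group were close. The mean went from 239.5 ± 9.50 (SD, n = 2) to 155 ± 8.48, a 1.55-fold lower level, with a log2 difference of -0.63 (SE 0.21) that did not pass.

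Dusp6 acts on ERK in the cytoplasm and is a well-known target of FGF signalling in the zebrafish embryo. Its bright probe set read 556 and 723 on the control arrays and 944 and 929 in glucose. Both glucose arrays were above both controls, and the log2 difference was 0.56 (SE 0.15), a 1.48-fold higher level. This probe set rose in the trend fit. Without control replicate 1 the difference was 0.37 and the call was lost, as it also was without either glucose replicate. The dim probe set of the same gene went the other way, from 84.5 and 76.5 in controls to 60.1 and 28.7 in glucose. It was below the tag level on all 4 arrays, its 2 glucose readings were far apart, and its log2 difference of -0.95 (interval from -1.94 to 0.03) was -0.42 without glucose replicate 2. When the 2 probe sets were averaged, dusp6 differed by -0.20 and did not pass. The direction for dusp6 therefore rests on which probe set is read.

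Among other dual-specificity phosphatase genes dusp1, which is bright, read 1527 and 1321 on the control arrays and 1553 and 1459 in glucose, with overlapping groups and a log2 difference of 0.08 (interval from -0.19 to 0.36). Dusp4 was below the tag level on all arrays and differed by -0.08 (SE 0.61). The probe set of dusp2 differed by -0.62 (interval from -1.25 to 0.02), with groups that did not overlap and 3 of its 4 readings below the tag level, and the bright one of dusp7 by 0.27 (interval from -0.10 to 0.64). Neither passed, and both are named after their values were seen.

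**Figure D2:**
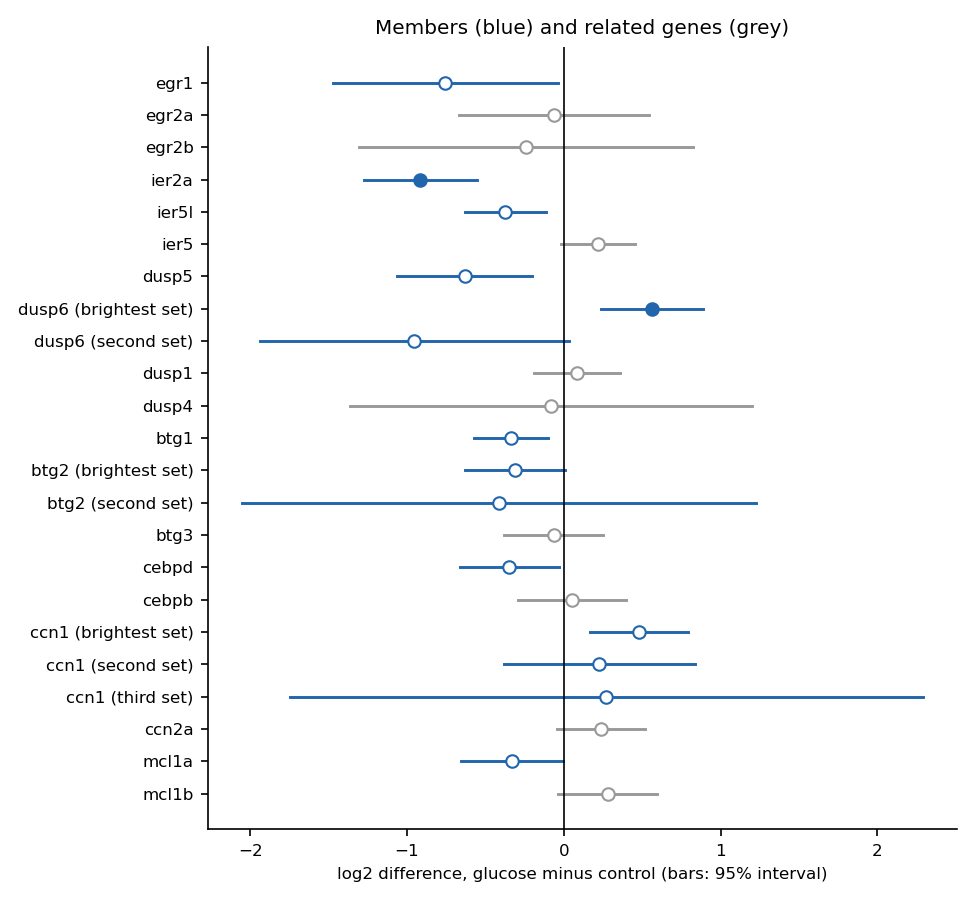
Log2 difference (glucose minus control) with its 95% interval from limma with an intensity trend, for the 14 tested member probe sets in blue and related genes in grey. Filled symbols passed the adjusted threshold of 0.10. For ier2a the difference was -0.91 and for the brightest dusp6 probe set 0.56, and the widest intervals belong to the dim probe sets.

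The antiproliferative genes btg1 and btg2, whose products bring the CCR4-NOT deadenylase to mRNAs, lay lower by similar amounts. Btg1 read 5608 and 4778 on the control arrays and 4069.8 and 4131 in glucose. The groups did not overlap, and the spread was larger in controls (587, SD, n = 2) than in glucose (43.4). The log2 difference was -0.34 (SE 0.11). The bright probe set of btg2 read 741 and 889.8 on the control arrays and 617 and 694 in glucose, a log2 difference of -0.31 (SE 0.15). Its groups did not overlap, although the nearest control and glucose readings lay closer together than the 2 controls. The dim btg2 probe set read 40.7 and 33.9 on the control arrays and 41.1 and 18.9 in glucose, with overlapping groups. None of the 3 probe sets passed. The family member btg3 differed by -0.06 (interval from -0.38 to 0.25).

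Ccn1 encodes a secreted matrix protein and is a classic target of the YAP coactivator. Its bright probe set read 615 and 600.1 on the control arrays and 774 and 928 in glucose. Both glucose arrays were higher, and the log2 difference was 0.48 (SE 0.15), a 1.39-fold higher level that did not pass. The second ccn1 probe set read 167 and 88.2 on the control arrays and 134 and 150.2 in glucose, and the third 11.6 and 57.6 against 21.6 and 45.1. Both had overlapping groups, with log2 differences of 0.23 (SE 0.29) and 0.27 (SE 0.96). The related ccn2a read 1078 and 1226 on the control arrays and 1295 and 1413 in glucose, a log2 difference of 0.23 (interval from -0.05 to 0.52).

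Mcl1a, which encodes a short-lived inhibitor of apoptosis of the BCL2 family, read 842 and 710.4 on the control arrays and 664 and 570.5 in glucose. The groups did not overlap, and the log2 difference was -0.33 (SE 0.15). Its duplicate mcl1b read 537 and 511 on the control arrays and 623 and 648 in glucose, a log2 difference of 0.28 (SE 0.15) with groups that did not overlap either. Neither passed, and the contrast between the duplicates was not tested.

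Set against brightness, the members divided into bright and dim readings. Each of the 9 probe sets above the tag level on all 4 arrays had groups that did not overlap, with 7 lower and 2 higher in glucose. Among all 8395 tested probe sets above the tag level on all arrays, the groups did not overlap for 20.8% lower and 23.5% higher in glucose. Nothing is read from the members' count, which the choice of genes used. The 5 tested probe sets with a reading below the tag level belonged to egr1, dusp6, btg2 and ccn1, and 3 of them had overlapping groups. Across all tested probe sets the central 90% of differences ran from -0.66 to 0.65 and the central 50% from -0.20 to 0.20.

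**Figure D3:**
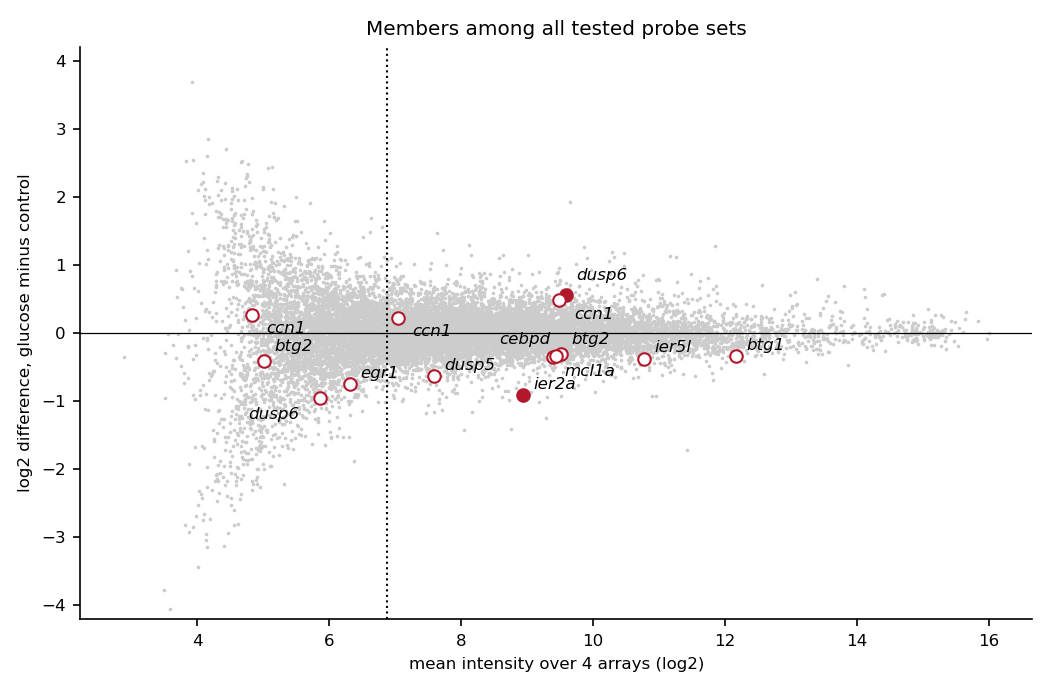
Log2 difference (glucose minus control) against mean log2 intensity for all 13628 tested probe sets in grey and the 14 tested member probe sets in red, filled where they passed the adjusted threshold of 0.10. The dotted line is the tag level. The grey cloud is wide at the dim end, and ier2a, at -0.91, stands near the lower edge of the cloud for its brightness.

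The replicates within a group differed too, and these differences were not used to choose the genes. Between the 2 controls the bright probe sets of ier2a, dusp6 and btg2 were higher in replicate 2 by 0.43, 0.38 and 0.26 on the log2 scale, while mcl1a, btg1 and cebpd were lower there by values of -0.25, -0.23 and -0.14. The immediate-early genes thus had no common direction between the controls, with 5 of 14 tested probe sets higher and 9 lower in replicate 2. Between the glucose replicates 6 were higher and 8 lower in replicate 2. For all tested probe sets with a mean log2 between 9 and 10, the median absolute difference was 0.16 between the controls and 0.12 between the glucose arrays. The probe sets of ier2a and btg1 lie outside that range. Between the controls it was 0.20 for a mean log2 of 8 to 9, which holds ier2a, and 0.13 above 12, which holds btg1. With 1 array on each side these values carry no test.

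**Figure D4:**
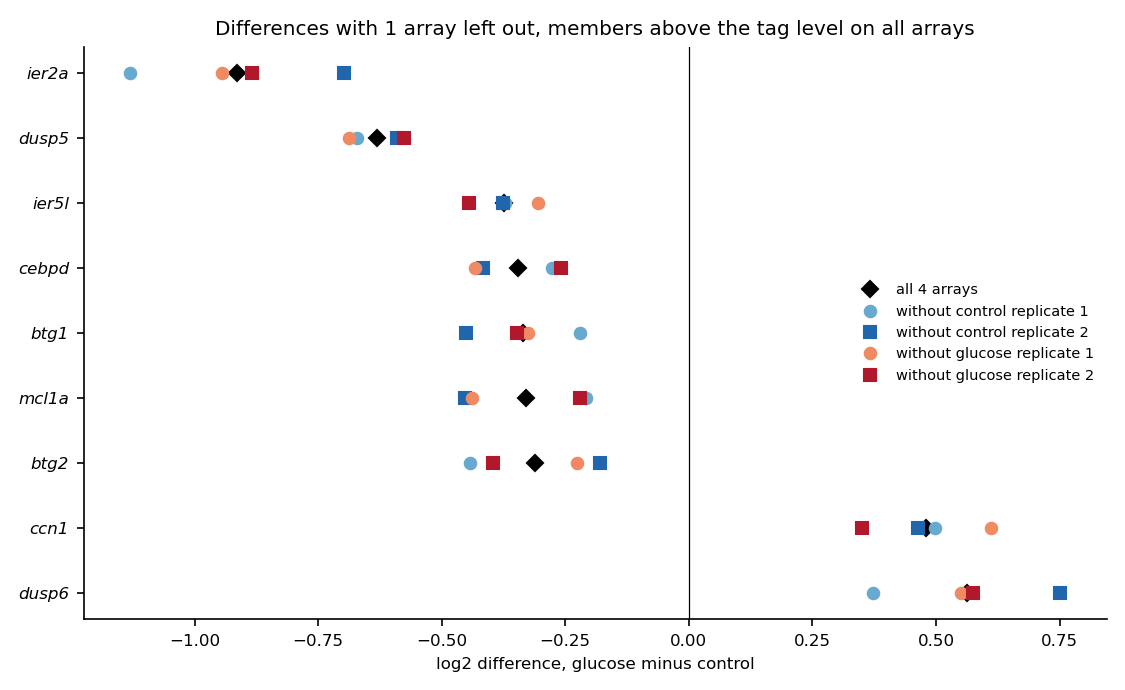
Log2 difference (glucose minus control) of the 9 member probe sets above the tag level on all arrays, with all 4 arrays (black) and with each array left out in turn. The groups of these probe sets do not overlap, so no point could cross 0. For ier2a the points range from -1.13 to -0.70.

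Leaving out 1 array changed the sizes for these 9 probe sets. Their groups do not overlap, so the sign could not change. Without control replicate 1 the difference was -0.22 for btg1 and -0.21 for mcl1a, and without control replicate 2 it was -0.18 for btg2. Without control replicate 2 btg1 and ier5l passed as lower and ccn1 as higher; ccn1 also passed without control replicate 1. Such fits rest on 1 array in a group, whose spread is taken from the other group.

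The wider families were read from lists chosen by function, with earlier results of these data known. The list of other immediate-early genes leaves out the members and the AP-1 genes, so its values are not an independent reading. Of 54 other immediate-early genes 35 were tested, with 39 probe sets, of which 18 were above and 21 below 0, and the median log2 difference was -0.02 against 0.00148 over all tested probe sets. In that list 1 probe set passed higher and 0 lower, against 1.29% and 0.712% of all probe sets. At an unadjusted p under 0.05 in the trend fit 3 were higher and 3 lower, where the shares over all probe sets were 6.22% and 5.26%, and without the trend 2 and 1. The gene that rose was pim1, a survival kinase, which read 1265 and 1264 on the control arrays and 1831 and 1718 in glucose. Its log2 difference was 0.49 (SE 0.12, limma with trend, adjusted p = 0.0708; without trend, 0.544), and the call was lost without either glucose replicate, where the difference was 0.44 and 0.53. The brightest gene of the list, id1, an inhibitor of differentiation factors, differed by 0.10 (SE 0.10).

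Genes of ERK feedback and FGF signalling, a list that holds ligands, receptors and kinases of the pathway beside its targets, were measured by 30 probe sets of 23 genes, with 14 above and 16 below 0 and a median of -0.00286. In limma with trend 0 passed, and at an unadjusted p under 0.05 there were 0 in either direction, with or without the trend. The bright members fgfr4, an FGF receptor, and dusp1 differed by 0.24 (SE 0.13) and 0.08 (SE 0.13). The FGF target genes etv4 and spry4 differed by 0.34 (interval from -0.13 to 0.80) and -0.10 (interval from -0.40 to 0.21). The groups of etv4 overlapped and those of spry4 did not. Neither gene passed, and both are named here after their values were seen.

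Among the CCN and YAP target genes 8 probe sets of 7 genes were tested, with 4 on each side of 0 and 0 past the threshold of limma with trend (1 higher and 2 lower at an unadjusted p under 0.05, and 0 and 2 without the trend). The 2 probe sets of yap1, the coactivator itself, differed by 0.32 (SE 0.17) on the bright one and -0.53 (SE 0.24) on the dim one, opposite signs that did not pass. In the BTG and C/EBP families 6 of 12 probe sets were above 0 and 0 passed in limma with trend (1 higher and 1 lower at an unadjusted p under 0.05, and 1 and 0 without the trend). The gene cnot8, for a deadenylase that BTG proteins bind, was at 0.13 (SE 0.13) on its bright probe set.

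In the BCL2 family 11 of 16 probe sets were below 0, the median was -0.17 and 0 passed in limma with trend (0 higher and 2 lower at an unadjusted p under 0.05, and 0 without the trend). Its brightest gene, bcl2l13, a mitochondrial member, read 815 and 1355 on the control arrays and 685 and 657 in glucose on its bright probe set. The 2 controls were farther apart than the lower control and the glucose arrays. The log2 difference of -0.65 (SE 0.19) was -0.28 without control replicate 2. The dimmer bcl2l13 probe set read 311 and 251 on the control arrays and 219 and 213 in glucose. Its groups did not overlap, and the log2 difference of -0.37 (SE 0.19) did not pass. The other bright member, bcl2l10, differed by -0.02 (SE 0.15).

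Genes of the cortisol pathway were read as a further list of stress-responsive genes. Of 13 probe sets of 10 genes 6 were above 0, 7 were below 0 and 0 passed in limma with trend (3 higher and 3 lower at an unadjusted p under 0.05, and 1 and 2 without the trend). The glucocorticoid-induced gene fkbp5 differed by 0.24 (SE 0.13) and the clock gene per2 by 0.28 (SE 0.13) on its bright probe set. The dim per2 probe set, above the tag level on only 1 array, went the other way, by -0.40 (SE 0.30). The groups did not overlap on either per2 probe set.

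The AP-1 genes, which are immediate-early genes of the Fos and Jun families, were measured by 14 probe sets of 8 genes, with 7 on each side of 0. In limma with trend 4 passed lower, where 0.712% of all probe sets did, and these were 3 of the 4 of fosab and that of junbb. Without the trend none of these passed. At an unadjusted p under 0.05 in the trend fit 0 were higher and 6 lower, against 6.22% and 5.26% of all probe sets. Without the trend it was 1 and 6, against 4.5% and 3.96%. The call of the third fosab probe set was lost without glucose replicate 1, where its difference was -0.69, and without the filter on low values. The brightest fosab probe set read 863 and 1069 on the control arrays and 418 and 395 in glucose, and junbb 868 and 873 against 479 and 431, while the 2 probe sets of jun differed by 0.27 and 0.31 and did not pass.

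**Figure D5:**
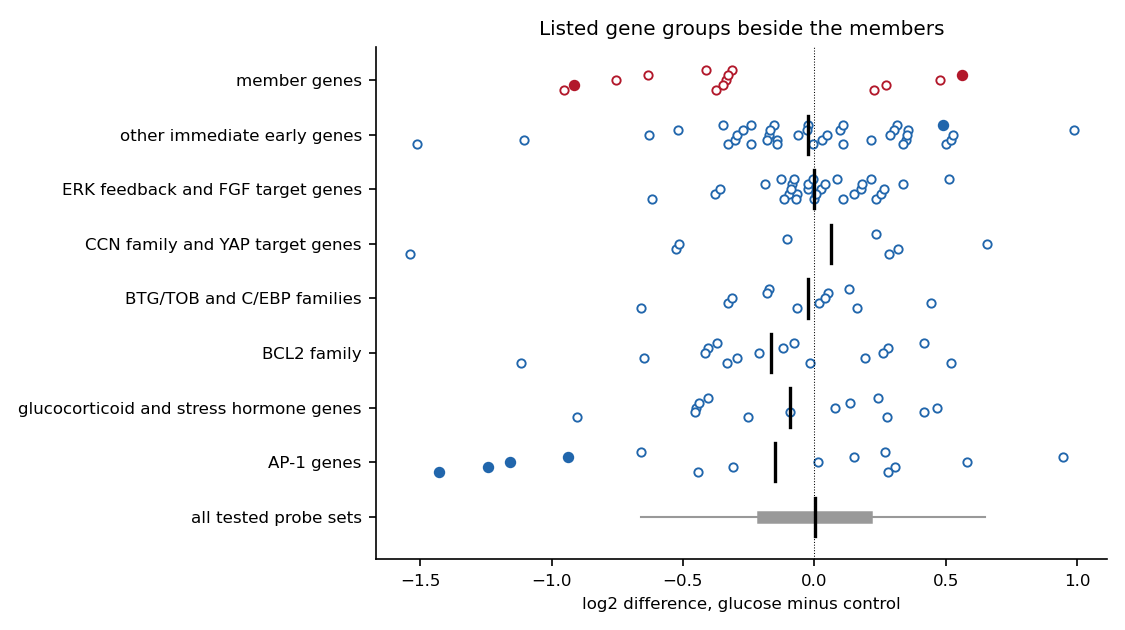
Log2 differences (glucose minus control) of the tested probe sets of the members (red) and of the listed families (blue), filled where they passed the adjusted threshold of 0.10. Black bars are the medians of the lists; the bottom line gives the central 90% of all tested probe sets, from -0.66 to 0.65, and its thick part the central 50%. The lists lie around 0, with medians from -0.17 to 0.07.

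The named probe sets whose readings over the 4 arrays were most like those of the brighter egr1 probe set were found among 6830 named probe sets with a mean log2 of at least 7. Likeness was the Euclidean distance between the 4 log2 values, each centred on its own mean. All 4 egr1 readings were below the tag level, and the pattern compared includes the glucose against control difference that was known when the genes were chosen. The 5 nearest were zgc:64106 (distance 0.108), actr2a (0.109), junba (0.125), bloc1s1 (0.156) and atf7ip (0.158). Of these junba is an AP-1 gene, and its readings were 196 and 189.6 on the control arrays and 134 and 111 in glucose. With 4 arrays, such a ranking describes the readings only.

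Genes used as references in expression assays moved little: the log2 difference was 0.01 for the actin gene actb1 (SE 0.08), 0.03 for the elongation factor gene eef1a1l1 (SE 0.08) and 0.10 for the ribosomal gene rpl13a (SE 0.09).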

How the data were processed

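Total RNA, extracted with Trizol per the labels' protocols, was measured on 4 Affymetrix arrays. For each array the deposited table holds a linear intensity of each probe set, and GCRMA is named, without a version, in the submitters' processing notes. The deposited intensity values have equal trimmed means on all arrays (500.2) and noisy low values. The method that made them, and any background correction, thus stays unknown. The log2 of each intensity was taken with no further scaling. Differences were fitted with limma 3.58.1 (eBayes with an intensity trend) in R 4.3.3 over 13628 probe sets, without the 115 control probe sets. Genes were named from the platform annotation, where 10795 probe sets carry 1 gene, 135 several and 4572 none listed, with symbols updated through RefSeq (GRCz12tu; 10711 matched). Neither probe nor gene sequences were used here. Tables and plots used Python 3.11.15, pandas 2.3.3 and matplotlib 3.10.9.

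The members, lists and tests were chosen with earlier results of these data known. All member probe sets were described. From each list the text names genes that passed, the 2 brightest and fixed relatives. Further listed genes were named after their values were seen, as stated where they appear. Of the fixed relatives 1, ier2b, had no probe set named for it. The code was tested on simulated data, with planted changes larger than any member difference and a spread set by brightness alone. That test therefore does not show how well smaller changes are called. Alternatives were another variance model, each array left out, a replicate block, other filters, quantile normalization, median centring, a pseudocount and a threshold of 0.05. The number of arrays limits the precision.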

Additional observations from a re-analysis of the deposited data

How the results depend on the processing

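Over all probe sets the trend fit called 176 higher and 97 lower. Without the intensity trend it was 0 and 0 (613 higher and 539 lower at an unadjusted p under 0.05), without a filter 117 and 57, and at a threshold of 0.05 it was 110 and 51; leaving out 1 array gave 88 to 578 higher and 59 to 356 lower. Members called lower numbered 1, against 0 without trend and 1 to 3 with an array left out. Members called higher numbered 1, against 0 without trend, without a filter, with quantile normalization, at 0.05 and with the mean of a gene's probe sets, and 0 to 2 with an array left out. Listed genes had 1 probe set higher and 4 lower, against 0 and 0 without trend; higher calls were 2 with a mean log2 of at least 6, 2 above the tag level, 0 at 0.05 and 0 to 6 with an array left out, and lower calls 4 to 9. The cause of these shifts was not tested. The ier2a call was kept in every alternative run except the fit without trend (adjusted p = 0.508), and the dusp6 call, at an adjusted p of 0.0972, was lost in 6 alternatives besides the stricter threshold and the gene mean. With the replicate number as a block the counts were 188 higher and 113 lower, with 1 member on each side, and it changed no call of a member; same-numbered arrays did not deviate together (r = -0.02), so the number is not taken as a pairing. Among the alternatives run per probe set, direction was always kept for 11 of the 14 tested member probe sets. The exceptions were the dim ones of btg2 and ccn1. The groups of the 11 do not overlap, so leaving out 1 array could not change their sign. The other variance models, the block and the filters do not alter the difference itself. The mean of a gene's probe sets, not counted here, gave -0.20 for dusp6. Readings below the tag level limit egr1 and the dim probe sets.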

Other observations

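Several listed genes with large differences were dim. Some of them are given here, with brighter ones, after their values were seen. The neuronal immediate-early gene egr4 read 136 and 101 on the control arrays and 23.2 and 72.5 in glucose, a log2 difference of -1.51 (SE 0.47, limma with trend, adjusted p = 0.167) that was -0.69 without glucose replicate 1. The activity-induced gene npas4a read 51.8 and 100.1 on the control arrays and 27.2 and 41.2 in glucose, and ccn2b 66.0 and 71.0 against 17.2 and 32.1. Both were below the tag level on all 4 arrays, and neither passed (adjusted p = 0.447 and 0.335). Large dim differences went both ways. Probe sets of pmaip1, srfa and fosl2, below the tag level on all 4 arrays, differed by -1.12, 0.99 and 0.95. None of them passed. The groups of pmaip1 did not overlap, while those of srfa and fosl2 did. Another fosl2 probe set, above the tag level on all 4 arrays, differed by 0.01, and a further dim one by 0.58. The other pmaip1 probe set, also dim, differed by -0.41, and these did not pass either. The other srfa probe set did not pass the filter on low values. Among brighter genes, tiparp, an early target of several stimuli, read 506 and 455 on the control arrays and 685 and 699.5 in glucose, a log2 difference of 0.53 (SE 0.15, adjusted p = 0.12). The growth arrest gene gadd45ga read 222 and 250.04 on the control arrays and 171 and 135 in glucose, a difference of -0.63 (SE 0.21, adjusted p = 0.229). Its relative gadd45ab went the other way, by 0.52 (SE 0.21). The relatives gadd45aa and gadd45bb differed by -0.30 and -0.52, and gadd45ba by -0.29 and -0.18 on its probe sets. No gadd45 probe set passed. In the stress hormone list the glucocorticoid-induced genes tsc22d3 and sgk1 differed by 0.47 (SE 0.17) and 0.42 (SE 0.14). The gene hsd11b2, for the enzyme that inactivates cortisol, differed by -0.44 (SE 0.17). None of the 3 passed (limma with trend, adjusted p = 0.258, 0.202 and 0.297). In the same list star differed by -0.45 (SE 0.18) and pck1 by 0.08 (SE 0.19). The 3 probe sets of nr3c1 differed by 0.14, -0.45 and -0.09. None of these passed either, and of the list's 13 probe sets 6 were above and 7 below 0.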
